A study of Mus musculus with 6 samples.

Results

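miR-210 is measured on these arrays by 2 features, one for each arm of its hairpin, mmu-miR-210-3p and mmu-miR-210-5p (mmu, for the mouse, is left out from here on). They were taken by name from the 1247 mouse miRNAs of the array, with earlier results of these data known. miR-210-3p was detected on all 6 arrays and could be tested, whereas miR-210-5p was detected on none. The RNA came from C57 mouse embryonic stem cells (mESCs) and from embryoid bodies (EBs), the cell aggregates in which such cells begin to differentiate. In the first group mESCs had been kept for 16 h under normoxia on mitomycin C-treated fibroblast feeders with leukaemia inhibitory factor (LIF). In the other groups EBs, formed as hanging drops with neither feeders nor LIF, had been kept for 16 h under normoxia or under hypoxia. Each group was hybridised to 2 single-colour (Cy3) Agilent arrays. The oxygen level is not given in the sources used here, and a single cell line stands behind all groups.

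miR-210 is the miRNA most widely linked to low oxygen. When oxygen is scarce, the hypoxia-inducible factors escape degradation, enter the nucleus and switch on their target genes, and miR-210 is transcribed from such a target. Its 3p arm is the one that is usually loaded into the silencing complex. Among its best known targets are the iron-sulphur cluster scaffold ISCU, through which it lowers mitochondrial respiration, and ephrin-A3 in endothelial cells.

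In RefSeq (GRCm38.p6) the Mir210 hairpin lies on the minus strand at chr7:141221384-141221493. It overlaps no other annotated gene there, and its nearest annotated neighbours are Rassf7 on one side and Gm51460 on the other. The hairpin is shown with both arms in capitals, because the arrays read these stretches separately. The 5p arm takes bases 28 to 49 and the 3p arm bases 66 to 87 of its 110 bases.
Mir210 hairpin: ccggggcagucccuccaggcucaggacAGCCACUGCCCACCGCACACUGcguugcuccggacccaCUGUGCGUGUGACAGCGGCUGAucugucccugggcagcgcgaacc
The mature arms follow with the seed, bases 2 to 8, in capitals, since the seed sets which messenger RNAs a miRNA can pair with.
miR-210-3p: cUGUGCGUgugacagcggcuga
miR-210-5p: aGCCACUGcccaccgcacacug
Of the 1679 mouse mature miRNA names in that table, 0 others had the seed of miR-210-3p and 0 others that of miR-210-5p, so no relative with the same seed stands on the array under one of these names.

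Other miRNAs that share a stretch of bases with miR-210-3p were also looked for, since an array probe can bind a similar sequence. Of the 1247 mouse miRNAs on the array, 1017 had a mature sequence in the table. Among these the longest run of bases identical to one in miR-210-3p was 8, found in 3 miRNAs and shown in capitals.
miR-293-5p: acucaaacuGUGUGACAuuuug
miR-3067-3p: ccaAGCGGCUGcccugggagagg
miR-542-3p: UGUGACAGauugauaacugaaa
miR-542-3p was detected on 0 of the 6 arrays. miR-293-5p, an arm from the mESC cluster miR-290 to miR-295, was detected on all 6 and was lower in hypoxic than in normoxic EBs, with a log2 change of -0.52 (limma, adjusted p = 0.00872). miR-3067-3p was also detected on all 6, with a log2 change of 0.33 (limma, adjusted p = 0.0458).

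The scanner called 408 to 495 mouse miRNAs detected per array, and 391 were detected on every array. The 75th percentile of these 391, used to scale the arrays, ran from 137 units on mESC array 1 to 237 units on normoxic EB array 2. Of a list of 9 stem cell markers from the miR-290 to miR-295 and miR-302/367 clusters, 7 matched a name on the array. All 7 were detected on all arrays. Other members of these clusters are on the array and were not included. Summed over the 7 markers the scaled signal lay at 26944 and 28200 units for mESCs, at 20719 and 23055 for normoxic EBs, and at 17698 and 17750 for hypoxic EBs. Of 5 muscle miRNAs, 4 had no detection anywhere and miR-206-3p had it on 1 mESC and 1 hypoxic EB array. In a bulk sample, fewer cells that make a miRNA and less of it per cell cannot be told apart. No label says that the arrays of a group came from separate cultures, so what the p-values weigh is array-to-array spread that may be technical only. With 6 arrays, the number of arrays limits the precision.

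miR-210-5p had the detection flag 0 on each of the 6 arrays, where it is deposited with the fixed intensity of 0.1 units given to every undetected miRNA. The lowest signal called detected was 1.93 to 2.54 units, depending on the array. No change of this arm could be tested in any comparison, and its absence from these calls does not show that the arm was not made. Levels of the arms were not set against each other, because they are read by different probes.

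miR-210-3p read 112 units on mESC array 1 and 106 units on mESC array 2 before any scaling. Normoxic EBs gave 93.6 and 92.7 units, hypoxic EBs 199 and 168 units. Even unscaled, both hypoxic EB arrays lay above all others and both normoxic EB arrays below all others, with no overlap between groups. How many other miRNAs separated in this way was not counted, so the separation alone does not set miR-210-3p apart. The scanner's own error was 7.18% to 7.52% of the signal, against an array median of 8.53% to 8.91% over the detected miRNAs. By that estimate alone, miR-210-3p was read somewhat more precisely than most.

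After scaling to the 75th percentile, miR-210-3p stood at 154 and 142 units in mESCs, 148 ± 8.52 (SD, n = 2). It stood at 79.3 and 73.6 units in normoxic EBs, 76.5 ± 3.99 (SD, n = 2). In hypoxic EBs it stood at 171 and 181 units, 176 ± 7.24 (SD, n = 2). The order of the groups was therefore normoxic EBs, mESCs, hypoxic EBs, from low to high, as it was unscaled. The arrays of a group differed by 0.12, 0.11 and 0.08 on the log2 scale for mESCs, normoxic EBs and hypoxic EBs. The scanner error expected for such a difference was 0.15, 0.15 and 0.15, so in each group the arrays differed by less than that error. In the same order of groups, 19.4%, 44.8% and 56.0% of the 391 miRNAs detected on all arrays differed more than miR-210-3p did.

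A measure that no common scaling factor can alter is the signal divided by the same array's median over the 391 miRNAs. miR-210-3p was 2.49 and 2.30 times the array median in mESCs. This fell to 1.35 and 1.27 times in normoxic EBs and stood at 3.04 and 3.03 times in hypoxic EBs. The 2 hypoxic arrays, which differed in brightness, gave nearly the same ratio.

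**Figure D1:**
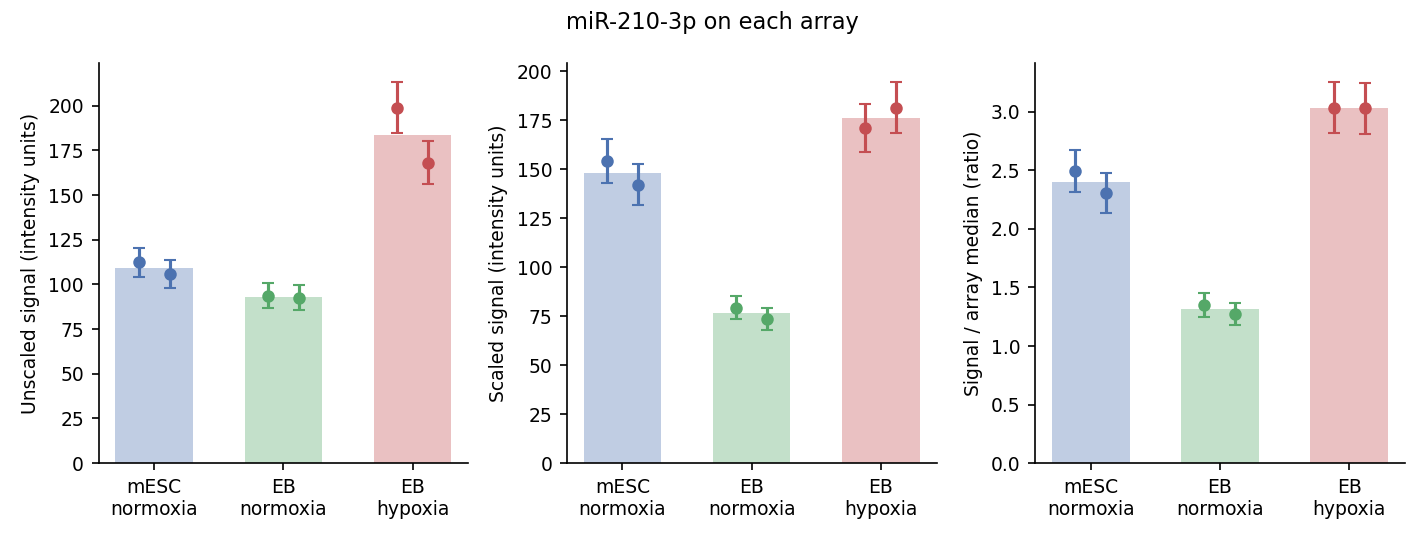
Signal of miR-210-3p by group, unscaled and scaled in intensity units and as a ratio to the array's median over 391 miRNAs. Points are the 2 arrays of each group with the scanner's error, and bars are their mean. In each panel both normoxic EB arrays are lowest and both hypoxic EB arrays highest, with hypoxic readings of 199 and 168 units unscaled and 171 and 181 units scaled.

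By rank of signal among the detected mouse miRNAs of an array, miR-210-3p was 108th of 408 and 114th of 415 in mESCs. In normoxic EBs it stood lower, 164th of 446 and 167th of 473. In hypoxic EBs it was 104th of 495 and 103rd of 471. A rank is set by the probe as well as by the amount of the miRNA, so only its movement between arrays bears on miR-210-3p. It was brighter than 72.7% and 73.7% of the other detected miRNAs in mESCs, than 63.4% and 64.8% in normoxic EBs, and than 78.3% and 79.1% in hypoxic EBs.

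Hypoxic EBs were compared with normoxic EBs to ask what low oxygen did to miR-210 in aggregates of the same kind. miR-210-3p was 2.31-fold higher under hypoxia (95% interval 2.02 to 2.64), a log2 change of 1.21 with a standard error of 0.07 (limma, adjusted p = 0.00601). That difference exceeded the 0.08 to 0.12 by which the arrays of a group differed. In this comparison 58.1% of the 484 tested miRNAs passed the same threshold, 32.9% of them higher and 25.2% lower, so the call alone does not set miR-210-3p apart. Its size is less common: it was the 3rd highest of the 391 miRNAs detected on all arrays, whose middle 80% had log2 changes from -0.37 to 0.58 around a median of 0.09. An exact two-sided permutation test of 2 arrays against 2 gave p = 0.333, the smallest it can give.

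Over all 484 tested miRNAs it was the 8th highest, and 5 of the 7 above it were not detected on all arrays. These, named after their values were seen, were miR-3473c, miR-1931, miR-493-3p, miR-3100-3p and miR-193b-5p, each detected on both hypoxic EB arrays, on no mESC array and on at most 1 normoxic EB array. Their normoxic level therefore rests at least in part on the floor, and miR-193b-5p did not pass (limma, adjusted p = 0.0947). The other 2, detected on all arrays, were dim. miR-711 went from 3.97 and 4.96 units in normoxic EBs to 10.7 and 12.6 units in hypoxic EBs, 2.61-fold higher (limma, adjusted p = 0.00743). Its call was lost with no filter (limma, adjusted p = 0.0768) and with a floor 4 times as high (log2 change 0.06, adjusted p = 0.38). miR-6401 went from 5.59 and 9.49 units to 16.9 and 17.4 units, 2.36-fold higher (limma, adjusted p = 0.0198), and did not pass with no filter (adjusted p = 0.155). The normoxic readings of miR-6401 lay far apart, and its call was lost without hypoxic EB array 1 (adjusted p = 0.0847) or array 2 (adjusted p = 0.099), and without scaling (adjusted p = 0.0621).

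Brightness was then used to choose miRNAs for comparison, after the values had been seen. Of the 391 miRNAs, 123 had a mean log2 scaled signal at or above that of miR-210-3p, itself included. This cut leaves out the dimmer miR-711 and miR-6401, which rose more, so the rank depends on the cut. Among these 123 miR-210-3p had the largest rise under hypoxia, also with quantile normalization and cyclic loess, the only scalings used that can change the order of miRNAs, and the middle 80% had log2 changes from -0.37 to 0.49. It was the 1 miRNA of the 123 that differed at least 2-fold, a count that was 1 with 6 scalings and 0 both without scaling and with the authors' ratio, where miR-210-3p rose 1.96-fold. The next largest rise among them, that of miR-466h-3p from the Sfmbt2 repeat cluster, went from 158 ± 23.1 to 256 ± 12.5 units (SD, n = 2 each), a log2 change of 0.71 (limma, adjusted p = 0.0143).

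**Figure D2:**
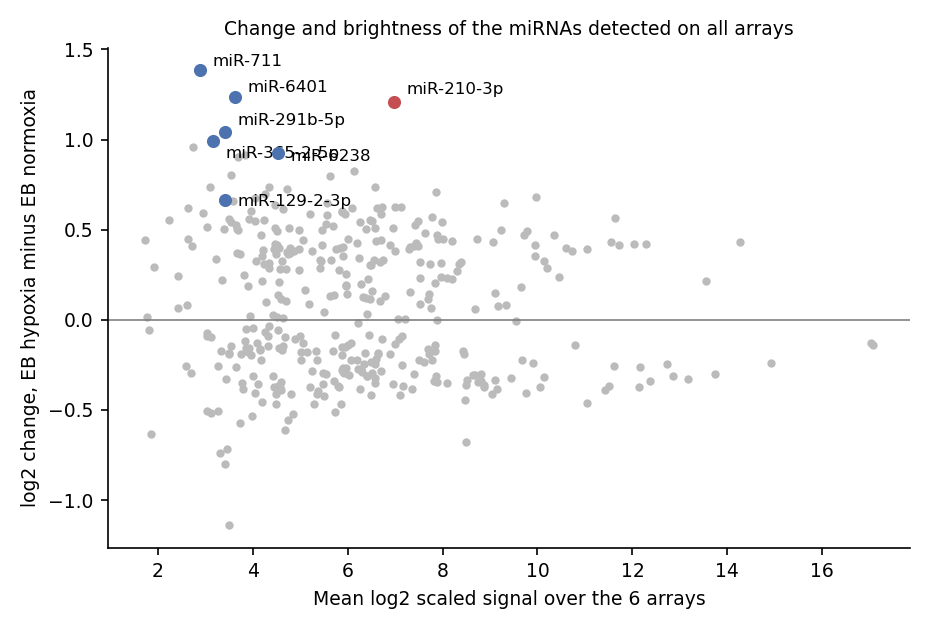
The log2 change from normoxic to hypoxic EBs against the mean log2 scaled signal over the 6 arrays, for the 391 miRNAs detected on all of them. Each point is a miRNA, with miR-210-3p in red at a log2 change of 1.21 and the miRNAs most like it or with a larger rise in blue. The dimmer miR-711 (1.38) and miR-6401 (1.24) lie above miR-210-3p. Among miRNAs at least as bright, a cut chosen after the values were seen, miR-210-3p is the highest point.

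The rise was recomputed with 8 ways of scaling the arrays. It passed the threshold with all 8, and the groups' arrays overlapped with 0 of them, a separation not counted for other miRNAs. The smallest change was 0.97 on the log2 scale, or 1.96-fold, without scaling (limma, adjusted p = 0.0195). The largest was 1.44, or 2.72-fold, with scaling to the hur control features of the array (limma, adjusted p = 0.00067). Much of that range belongs to the whole array, since the median change of all tested miRNAs was 0.10 in the main setting, -0.10 without scaling and 0.34 with hur scaling. Relative to the median of the 391 miRNAs the rise was 1.12, a value and a rank (the 3rd) that the 6 settings with a common factor per array, or none, cannot alter. With quantile normalization it was 1.17 and ranked 1st, and with cyclic loess 1.13 and 2nd. Leaving out any 1 array kept it between 1.15 and 1.26, and it passed in each of those fits. With hur scaling the calls over all tested miRNAs were 231 higher and 15 lower, and without scaling 24 higher and 115 lower, against 159 and 122 in the main setting.

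Normoxic EBs were compared with mESCs to ask what changed as the cells left stem cell culture, with normoxia common to both. miR-210-3p was 1.94-fold lower in normoxic EBs (95% interval 1.69 to 2.22), a log2 change of -0.95 with a standard error of 0.07 (limma, adjusted p = 0.00121). In this comparison 51.2% of the 484 tested miRNAs passed, 26.0% higher and 25.2% lower. Of the 391 miRNAs detected on all arrays 23 fell more, led by miR-669e-3p of the Sfmbt2 cluster at 3.84-fold and by members of the pluripotency cluster miR-302/367. miR-669e-3p lost its call without normoxic EB array 2 (limma, adjusted p = 0.0517) and with the authors' ratio (0.0549). Of the 123 miRNAs at least as bright as miR-210-3p 8 fell more, and the largest of these falls was that of miR-302d-3p at 3.55-fold.

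The call of this fall, unlike that of the rise, depended on scaling. The fall was 1.80-fold to 1.96-fold with the 6 settings that scale the arrays, all past the threshold. Without scaling it was 1.17-fold (limma, adjusted p = 0.132), and with the authors' normalized ratio, which does not scale arrays to each other, 1.17-fold as well (limma, adjusted p = 0.148). The mESC arrays were dimmer as a whole: without scaling the median change of all tested miRNAs was 0.74, and 326 were called higher and 11 lower, against 126 and 122 in the main setting. Relative to the median of the 391 miRNAs the change of miR-210-3p was -0.96 on the log2 scale, which a common factor per array cannot alter, -1.01 with quantile normalization and -0.88 with cyclic loess. The mESC arrays lie in another row of the slide than the EB arrays, per the file names, so the row of the slide cannot be told apart from the state of the cells. Loss of LIF, loss of feeders and aggregation also came together and cannot be told apart here.

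Feeder cells were a further difference, since only the mESCs grew on them. Of 9 fibroblast miRNAs on the array 3 were detected on all arrays, miR-21a-5p, miR-22-3p and miR-125b-5p, while miR-143-3p, miR-152-3p and miR-199a-5p were detected on none. Summed over the list the scaled signal came to 460 and 485 units for mESCs, to 296 and 325 for normoxic EBs and to 241 and 257 for hypoxic EBs. miR-199a-3p was detected on both arrays of each EB group and on neither mESC array. Most of that sum is miR-21a-5p, at a mean of 404 units in mESCs, 190 in normoxic EBs and 150.1 in hypoxic EBs. The members did not move together: miR-125b-5p stood at 25.4, 69.9 and 56.6 units in the same order of groups, and miR-22-3p at 43.7, 43.7 and 31.6 units. The part of feeder RNA in the result was not tested.

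**Figure D3:**
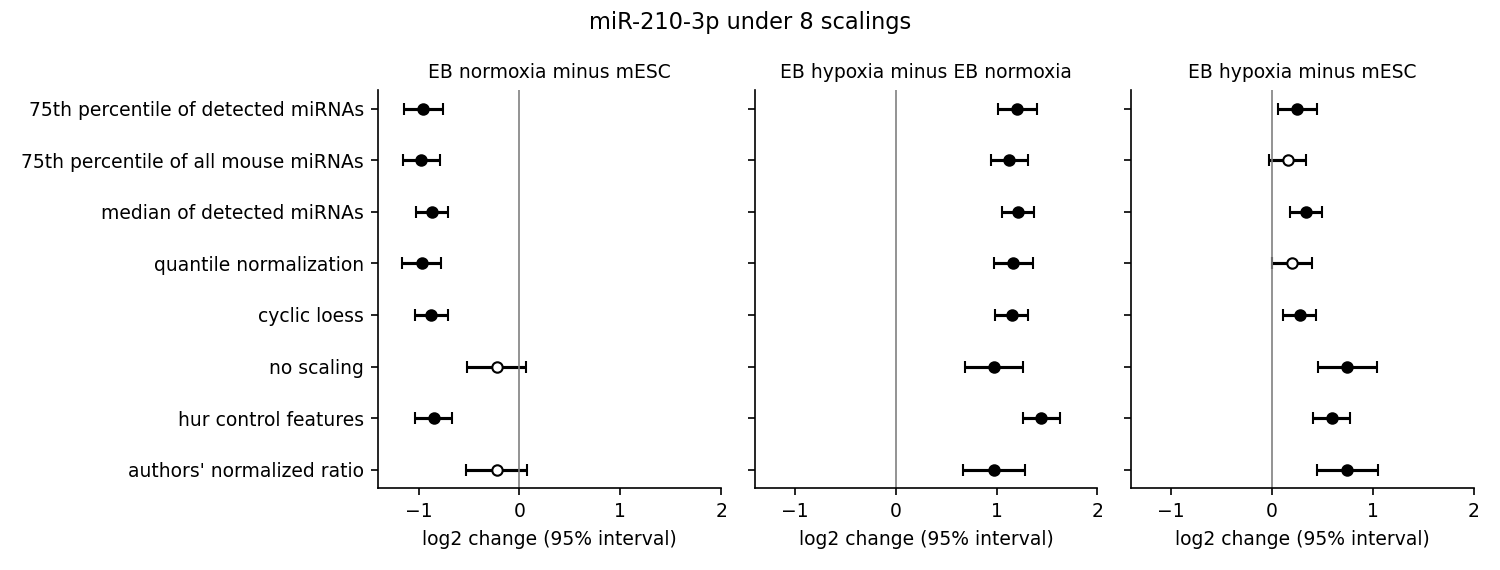
The log2 change of miR-210-3p in each comparison, with its 95% interval from limma, under 8 scalings of the arrays. Filled points passed an adjusted p of 0.05 and open points did not. The rise under hypoxia stays between 0.97 and 1.44, while the fall in normoxic EBs shrinks from -0.95 to -0.23 without scaling.

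Hypoxic EBs were also set against mESCs, a comparison in which oxygen and cell state both differ. miR-210-3p was 1.19-fold higher in hypoxic EBs (95% interval 1.04 to 1.36), a log2 change of 0.25 (limma, adjusted p = 0.031). The background was high, with 75% of the 484 tested miRNAs called, 41.3% higher and 33.7% lower. Its change was unremarkable in size, 157th from the top of the 391 miRNAs detected on all arrays, whose middle 80% ran from -0.75 to 0.86. The call was lost without mESC array 1 (limma, adjusted p = 0.0528), mESC array 2 (0.136), hypoxic EB array 1 (0.0627) or hypoxic EB array 2 (0.124). It was also lost when scaled to all mouse miRNAs (1.11-fold, limma, adjusted p = 0.0962) and with quantile normalization (1.15-fold, limma, adjusted p = 0.074). Without scaling it was 1.68-fold (limma, adjusted p = 0.00368), where 251 of all tested miRNAs were called higher and 19 lower, against 200 and 163 in the main setting. In the order of levels, mESCs and hypoxic EBs are thus neighbours whose difference rests on the setting, while normoxic EBs lie apart from hypoxic EBs with all 8 scalings. The 3 comparisons share arrays with each other in pairs, so that the fall in normoxic EBs and the rise from them to hypoxic EBs rest on the same 2 normoxic readings.

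The miRNAs whose pattern was most like that of miR-210-3p were found by the root mean square difference of log2 scaled signals over the 6 arrays, each miRNA centred on its own mean. The median of this difference over the 390 other miRNAs detected on all arrays was 0.57. The closest were miR-365-2-5p at 0.11, miR-711 at 0.20, miR-6238 at 0.22, miR-129-2-3p at 0.23 and miR-291b-5p at 0.24. Their sequences are given with the seed in capitals, to show that none carries the seed of miR-210-3p.
miR-365-2-5p: aGGGACUUucaggggcagcugug
miR-711: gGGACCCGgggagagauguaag
miR-6238: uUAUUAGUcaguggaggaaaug
miR-129-2-3p: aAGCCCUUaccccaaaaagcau
miR-291b-5p: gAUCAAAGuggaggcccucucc
All 5 were dimmer than miR-210-3p, with scaled signals from 3.97 to 32.6 units. Pearson's r with miR-210-3p over the 6 arrays ran from 0.89 for miR-291b-5p to 0.99 for miR-365-2-5p. The 6 points fall in 3 groups of 2 arrays that share a slide, and r is given only as a description.

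miR-365-2-5p, the 5p arm of a miR-365 hairpin on chromosome 11, read 9.95 and 10.9 scaled units in mESCs, 5.95 and 5.78 units in normoxic EBs, and 11.2 and 12.1 units in hypoxic EBs. It was 1.77-fold lower in normoxic EBs than in mESCs (limma, adjusted p = 0.00159) and 1.99-fold higher in hypoxic than in normoxic EBs (limma, adjusted p = 0.00611). Its normoxic EB arrays lay below both other groups after scaling. Unscaled they did not, with 7.27 units on normoxic EB array 2 against 7.25 units on mESC array 1. miR-6238 read 16.7 and 17.1 units in normoxic EBs and 31.8 and 32.6 units in hypoxic EBs, 1.90-fold higher (limma, adjusted p = 0.00601).

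miR-129-2-3p rose by 0.67 under hypoxia on the log2 scale (limma, adjusted p = 0.00795). miR-291b-5p, an arm from the mESC cluster miR-290 to miR-295, rose by 1.04 (limma, adjusted p = 0.0234). That call was lost on leaving out either mESC array (adjusted p = 0.0541 each), normoxic EB array 1 (0.0639), hypoxic EB array 1 (0.0625) or hypoxic EB array 2 (0.121). In all, 5 of the 5 rose under hypoxia and 4 of the 5 fell in normoxic EBs. The remaining one, miR-291b-5p, had a log2 change of -0.71 there (limma, adjusted p = 0.066, and 0.0347 without normoxic EB array 2), and miR-711 lost its fall without mESC array 2 (adjusted p = 0.0611). They were picked for following miR-210-3p on these arrays, so these counts are a description. Of the 391 miRNAs detected on all arrays, miR-210-3p included, 134 were called higher under hypoxia, 116 lower in normoxic EBs and 32 both. Without scaling, the change from mESCs to normoxic EBs was above 0 for miR-6238, miR-129-2-3p and miR-291b-5p, and it was -0.10 for miR-365-2-5p (adjusted p = 0.495) and -0.11 for miR-711 (0.581), with adjusted p from 0.0911 to 0.981 over the 5 (limma). Under hypoxia the call of miR-6238 was lost with the authors' ratio (adjusted p = 0.0523), that of miR-129-2-3p with the ratio (0.056) and quantile normalization (0.0607), and that of miR-291b-5p without scaling (0.0588) and with the ratio (0.0871).

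**Figure D4:**
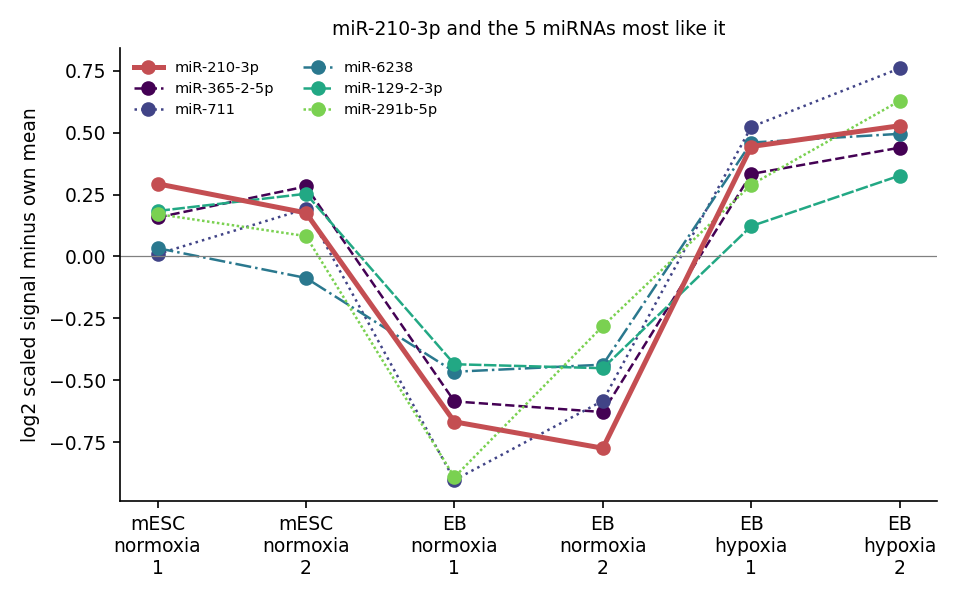
Log2 scaled signal of miR-210-3p and of the 5 miRNAs most like it on each of the 6 arrays, each centred on its own mean. Lines join the arrays for reading only and imply no order. All 6 miRNAs are lowest on the normoxic EB arrays, and the root mean square distance from miR-210-3p runs from 0.11 for miR-365-2-5p to 0.24 for miR-291b-5p.

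A list of 20 further miRNAs that have been reported to respond to hypoxia in other cell systems gave the context for miR-210-3p. The list holds no direction of response, so counts of rises and falls cannot be set against those reports. All 20 are on the array and 16 could be tested. From normoxic to hypoxic EBs 1 of these 16 rose and 10 fell, with a median log2 change of -0.25. Over all 484 tested miRNAs the median was 0.10, and 32.9% rose and 25.2% fell. Falls were thus not confined to the list: 122 of the 484 were called lower. The lowest 10% of the 391 miRNAs detected on all arrays had log2 changes of about -0.37 or below. In no comparison was the list set against miRNAs chosen to resemble its members, so whether such a shift belongs to the list was not tested. None of the 16 changed by as much as miR-210-3p in either direction, with log2 changes from -0.68 to 0.36. The number that fell depended on the setting: it was 7 without scaling, 1 with hur scaling, where the median was -0.02, and 1 with the authors' ratio. Over all 484 tested miRNAs the calls lower were 115, 15 and 30 in these settings, against 122 in the main one. The number of list members that fell also changed on leaving out any 1 array, being lower in most of those fits and higher in another. Fewer of all tested miRNAs were called in each of those fits.

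The riser was miR-155-5p, processed from the Bic transcript of activated immune cells, which read 20.2 and 20.6 units in normoxic EBs, against 25.7 and 26.9 units under hypoxia. Its rise of 1.29-fold (limma, adjusted p = 0.0145) was lost without normoxic EB array 1 (0.0615) or hypoxic EB array 2 (0.0596). Without scaling its log2 change was 0.13 (adjusted p = 0.442) against 0.36 in the main setting, and with the authors' ratio also 0.13 (0.464). The largest fall was that of miR-34a-5p, a transcriptional target of p53, which read 450 and 404 units in normoxic EBs, against 265 and 268 units under hypoxia. It was 1.60-fold lower (limma, adjusted p = 0.00705), and its call was kept on leaving out any 1 array and with all 8 scalings, but not with no filter (adjusted p = 0.0622). miR-20b-5p, a member of the miR-17 family that has been reported to target the hypoxia-inducible factor in human cells, read 3081 and 2724 units in normoxic EBs, against 2232 and 2190 units under hypoxia. It was 1.31-fold lower (limma, adjusted p = 0.0167), but not without hypoxic EB array 1 (0.0565) or array 2 (0.0743), nor with hur scaling (log2 change -0.15, adjusted p = 0.26) or the authors' ratio (0.0568).

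Of the other fallers, miR-181c-5p fell by 0.34 on the log2 scale (limma, adjusted p = 0.00768) and kept its call on leaving out any 1 array, but not with hur scaling (log2 change -0.10, adjusted p = 0.235) or the authors' ratio (0.0568). miR-21a-5p fell by 0.34 (limma, adjusted p = 0.0233) and miR-26b-5p by 0.31 (limma, adjusted p = 0.0234). The call of miR-21a-5p was lost in 5 of the 6 fits that leave out 1 array, the exception being normoxic EB array 2, with adjusted p from 0.0522 to 0.0981. That of miR-26b-5p was lost without either mESC array, normoxic EB array 1 or hypoxic EB array 2, with adjusted p from 0.0567 to 0.0873. With hur scaling the log2 change was -0.10 for miR-21a-5p (adjusted p = 0.467) and -0.08 for miR-26b-5p (0.605), and neither passed with the authors' ratio.

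The other comparisons of the list are given beside those of miR-210-3p. From mESCs to normoxic EBs 1 of the 16 rose and 8 fell, with a median log2 change of -0.23 against 0.05 for all tested miRNAs, of which 26.0% rose and 25.2% fell. Without scaling 9 rose and 0 fell (limma, 11 at an unadjusted p under 0.05 in either direction), in a setting where 326 of all tested miRNAs were called higher and 11 lower. Fewer than the 8 of the main setting fell on leaving out either mESC array, where fewer of all tested miRNAs were called as well. Leaving out some of the other arrays also changed the number that fell, but less. From mESCs to hypoxic EBs 1 rose and 14 fell, with a median of -0.50 against 0.11 for all tested, of which 41.3% rose and 33.7% fell, while miR-210-3p was 1.19-fold higher. Without scaling 2 rose and 2 fell, and with hur scaling 2 rose and 6 fell, where the calls over all tested miRNAs were 251 higher and 19 lower, and 251 higher and 60 lower. miR-181a-5p, miR-181a-1-3p and miR-199a-5p were detected on no array and miR-181b-5p on 1.

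**Figure D5:**
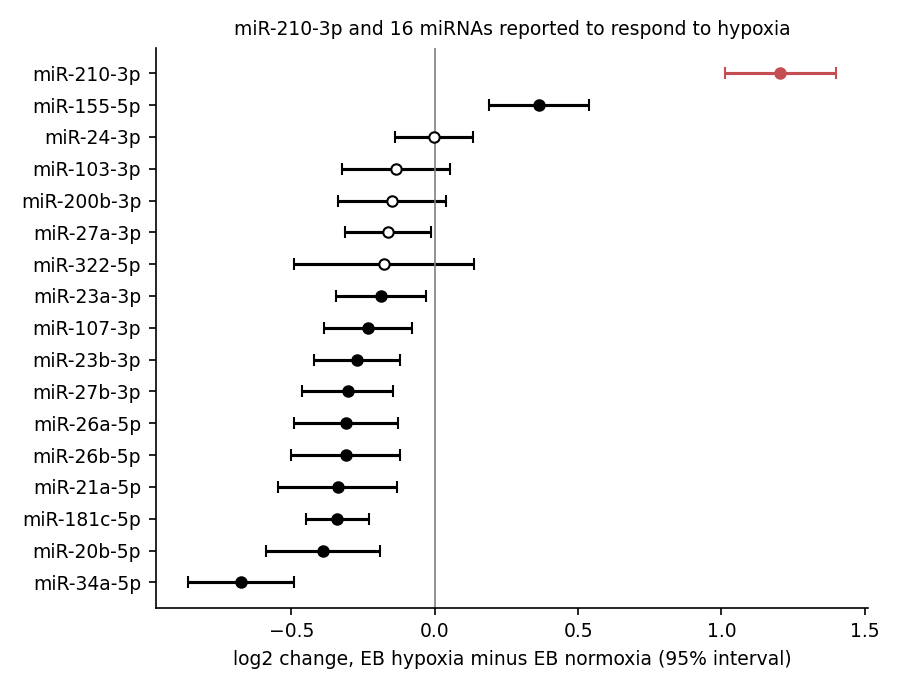
The log2 change from normoxic to hypoxic EBs, with its 95% interval from limma, for miR-210-3p (red) and the 16 tested members of the hypoxia list. Filled points passed an adjusted p of 0.05. miR-210-3p stands at 1.21 and the next highest, miR-155-5p, at 0.36.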

How the data were processed

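Per the file headers, the deposited scanner files hold for each miRNA a total signal (an intensity), its error and a detection flag. Per the labels, total RNA was labelled with Cy3, by a linear amplification of cRNA, which is used for messenger RNA; how the miRNAs themselves were labelled is not settled by the sources used here. Neither the scanner software nor the flag's rule is given in the sources used here. The deposited table of the whole series repeats these intensities, equal within 0.001 for 1253 of 1253 shared rows, and adds the authors' normalized ratio, each miRNA's signal over a control value. That table has 6 further columns that match no sample listed here, and they were not used. Depth has no counterpart on arrays.

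Signals were divided by the array's 75th percentile (taken over 391 miRNAs with detection on every array), multiplied by the mean of these percentiles (188 units), floored at 2.91 units and turned to log2. The 484 miRNAs that both arrays of some group detected were fitted with limma 3.58.1 in R 4.3.3, without a replicate block, using all 6 arrays (3 residual and 1.43 prior degrees of freedom), with Benjamini-Hochberg adjustment over all 484 in each comparison and a threshold of 0.05. In 20 simulations of hypoxic against normoxic EBs over these 484 miRNAs, the fit called 85.4% of 1.5-fold and 92.9% of 2-fold changes. The simulated noise was independent for each miRNA, came from the spread of these arrays and held no error common to an array. The shares may therefore be too high. The alternatives were other scalings, floors, filters and spread models, fits of only the groups compared, a replicate block and leaving out each array.

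Named miRNAs, besides both arms, were the 5 most like miR-210-3p, up to 5 with a larger rise under hypoxia or a larger fall in normoxic EBs among those detected on all arrays, and the 6 largest changes past the threshold in the hypoxia list. Other miRNAs were named after their values were seen. The members and lists were chosen with earlier results of these data known. Sequences are from RefSeq, GRCm38.p6. Figures were drawn with Python 3.11.15.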

Additional observations from a re-analysis of the deposited data

How the results depend on the processing

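The rise of miR-210-3p under hypoxia kept its direction and passed the threshold in 21 of 21 alternatives (log2 change 0.97 to 1.44, limma adjusted p 0.000162 to 0.0391); leaving out 1 array gave 1.15 to 1.26. Its fall from mESCs to normoxic EBs kept its direction in 21 of 21 and its call in 19, and had a log2 change of -0.23 both without scaling and with the authors' normalized ratio; leaving out 1 array gave -1.01 to -0.90. Its difference between hypoxic EBs and mESCs kept its direction in 21 of 21 and its call in 14, with log2 changes of 0.15 when scaled to all mouse miRNAs, 0.20 with quantile normalization and 0.25 with no filter, where 1247 miRNAs were tested; leaving out 1 array gave 0.19 to 0.31. The cause of these losses was not tested. With no filter, the number of miRNAs tested and the fit itself changed together. Where an array was left out, the remaining one of its group was assumed to vary like the others.

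With a replicate block the log2 changes were -0.95, 1.21 and 0.25 and no call of miR-210-3p changed (limma, adjusted p = 0.00511, 0.0153 and 0.0487). Same-numbered arrays share only a number: their deviations from the group means correlated with r of -0.02 to 0.06, and the block moved the counts of calls from 248 to 242, 281 to 263 and 363 to 357. Of 462 alternatives for 22 results on other named miRNAs 385 kept direction and side of the threshold, 67 lost and 4 gained a call, and 6 reversed, all from mESCs to normoxic EBs. These were miR-6238 (0.30), miR-129-2-3p (0.0672) and miR-291b-5p (0.0160), each without scaling and with the authors' ratio. Counts of all calls moved over 1.5 times in some settings: from 281 to 139 without scaling, 46 with the authors' ratio, 20 with no filter, 160 without normoxic EB array 1 and 173 without hypoxic EB array 2; from 248 to 154 with a floor 4 times as high, 94 with no filter and 142 without mESC array 1; and from 363 to 231 with no filter and 242 with the authors' ratio. No alternative gave a value for miR-210-5p, undetected on every array, and with no filter it is at the floor throughout. Dim miRNAs such as miR-711 and miR-365-2-5p fall to the floor when it is raised 4 times, and groups of 2 arrays were not examined for outliers.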
